A study of Mus musculus with 7 samples.

Results

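Respiratory complex I, or NADH:ubiquinone oxidoreductase, was examined through the nuclear genes whose symbols start with Nduf, leaving out the Ndufaf assembly factors. The rule found 36 genes among the 19938 measured by a probe set with 1 gene symbol, and where a gene had several probe sets, the brightest one across the 7 arrays stood for it. RNA came from the extensor digitorum longus, a fast-twitch hindlimb muscle, of 3 AMPKα1α2 double knockout mice (KO) and 4 wild type mice (WT), with 1 array for each mouse. The double knockout concerns both catalytic subunits of AMP-activated protein kinase, an enzyme activated as ATP is used up. All 7 mice shared a mixed background of C57/Bl6 and SV129. The labels do not give the age or sex of the mice, the cell type or promoter behind the deletion, or whether the muscles had been exercised. The series title concerns AMPK and the use of fatty acids by muscle in exercise, so the comparison asks how transcripts of the respiratory chain differ between these genotypes.

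Complex I takes electrons from NADH in the mitochondrial matrix, passes them along a chain of iron-sulfur clusters to ubiquinone, and uses the energy to pump protons across the inner membrane. Its core subunits carry the flavin, the clusters, the quinone site and the proton channels, and are conserved from bacteria. Accessory subunits surround this core and are needed to build or stabilise it. In skeletal muscle the complex is the main entry point for electrons from the oxidation of fatty acids and carbohydrate. Of the 36 genes, 34 encode structural subunits, with 6 core and 28 accessory ones. Ndufa4, now assigned to cytochrome c oxidase, and its paralogue Ndufa4l2, known for its induction under low oxygen, carry the same symbol stem but are not structural subunits of complex I, and they are given apart. Ndufb1-ps was not analysed here, and Ndufb4 was left out because both of its probe sets carry several symbols. None of the 7 core subunits encoded by mitochondrial DNA was measured under a symbol of its own.

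The promoter windows of the subunits are shown first, because the genes lay lower together in the arrays. RefSeq windows of mouse assembly GRCm38.p6, from 250 bases before to 50 bases after the annotated start, matched 32 of the 36 genes by symbol and 31 of the 34 subunits. Those without a window were Ndufs1, Ndufb9, Ndufa2 and Ndufa4l2. Motifs of 4 factors known to act on respiratory chain genes were searched on both strands. The letters AANATGGCG, a motif of the factor YY1, were found in 7 of 31 subunits (22.6%), against 2.76% of 27025 genes with such windows. These matches are shown in the order of the p-value of the gene's difference, with the matched letters in capitals and each sequence running 5′ to 3′ on the gene's strand.
Ndufs6 (chr13:73328433-73328459, minus strand): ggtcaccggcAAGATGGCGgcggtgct
Ndufs7 (chr10:80249463-80249491, plus strand): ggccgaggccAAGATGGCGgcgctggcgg
Ndufa9 (chr6:126849097-126849125, minus strand): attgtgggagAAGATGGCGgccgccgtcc
Ndufb11 (chrX:20617812-20617840, minus strand): tcaccaacacAAAATGGCGacgagaagag
Ndufs4 (chr13:114388045-114388069, minus strand): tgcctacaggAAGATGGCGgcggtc
Ndufc1 (chr3:51408915-51408943, minus strand): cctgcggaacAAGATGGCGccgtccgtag
Ndufa7 (chr17:33824617-33824645, plus strand): gagcggaaggAATATGGCGtccgctactc
In Ndufs6, Ndufs7, Ndufa9, Ndufs4 and Ndufc1 the match began between 23 and 36 bases into the transcript, and it began at position -18 from the start in Ndufa7 and at position -211 in Ndufb11. These letters contain ATG, so that they can also match at a start codon, and whether they do so here was not examined.

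A palindromic motif of the factor NRF1, with the base after its opening GCGC left free, as the capitals below show, was found in 6 of 31 subunits (19.4%), against 5.19% of all genes. Its matches are shown in the same way, again ordered by p-value.
Ndufa8 (chr2:36049349-36049378, minus strand): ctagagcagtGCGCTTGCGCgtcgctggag
Ndufs6 (chr13:73328479-73328508, minus strand): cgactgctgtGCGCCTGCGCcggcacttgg
Ndufa6 (chr15:82354249-82354278, minus strand): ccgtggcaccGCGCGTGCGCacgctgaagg
Ndufa5 (chr6:24527697-24527726, minus strand): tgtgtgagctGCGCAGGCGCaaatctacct
Ndufs5 (chr4:123718265-123718294, minus strand): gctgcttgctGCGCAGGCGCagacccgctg
Ndufa11 (chr17:56717692-56717721, plus strand): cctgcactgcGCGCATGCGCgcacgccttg
The match with A at the free base, the strict form of the motif, was found in 1 subunit, Ndufa11 (1.07% of all genes hold it), while Ndufa5 and Ndufs5 matched on the opposite strand. The ETS letters CCGGAAG, read by the factor GABP, were found in 4 of 31 subunits (12.9%, against 9.93% of all genes), namely Ndufs3, Ndufs8, Ndufb6 and Ndufb7. The letters TNAAGGTCA, read by ERR receptors, were in 0 of 31 subunits and in 1.43% of all genes, in this window only. Median G and C content was 59.0% in the subunits' windows and 52.7% in all windows, and the motif shares were not adjusted for this. The expression differences described next were set beside motif content as a description. The median KO minus WT difference, on the log2 scale, was -0.13 in the 7 subunits with AANATGGCG and -0.16 in the 24 without it. It was -0.18 in the 6 with the NRF1 motif and -0.16 in the 25 without it. For the ETS letters it was -0.17 in the 4 with them and -0.15 in the 27 without them. Ranges overlapped in each case, and whether motif content goes with the size of the difference was not tested. The ERR letters, found in 0 subunits, allowed no such comparison.

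Sequence upstream of the start is given for the subunit with the most negative difference, Ndufs6, and for the core subunit with the smallest p, Ndufv1, as a pair with and without a match. Capitals mark the NRF1 match in Ndufs6, and Ndufv1 held none of the motifs searched.
Ndufs6 (chr13:73328483-73328732, minus strand): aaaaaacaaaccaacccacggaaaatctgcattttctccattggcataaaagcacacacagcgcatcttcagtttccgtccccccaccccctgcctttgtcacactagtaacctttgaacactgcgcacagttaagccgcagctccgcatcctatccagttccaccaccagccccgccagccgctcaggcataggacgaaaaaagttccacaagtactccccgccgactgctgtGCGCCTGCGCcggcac
Ndufv1 (chr19:4012756-4013005, minus strand): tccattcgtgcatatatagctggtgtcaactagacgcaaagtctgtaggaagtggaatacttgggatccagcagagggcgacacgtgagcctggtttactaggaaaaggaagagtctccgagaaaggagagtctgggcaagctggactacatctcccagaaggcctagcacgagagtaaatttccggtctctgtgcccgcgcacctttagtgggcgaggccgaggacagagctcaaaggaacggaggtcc

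The arrays as a whole were alike in scale, and with 7 of them precision is limited. Medians over the probe sets with 1 symbol lay between 7.73 and 7.76 in KO arrays and between 7.72 and 7.74 in WT arrays, on the log2 scale inferred for the deposited values. Fast fibre markers were bright on every array, with means over 9 genes of 13.76 on each KO array and between 13.72 and 13.78 on WT arrays. Prkaa1, which encodes the targeted α1 subunit, read 9.09, 9.19 and 8.80 in KO arrays, against 9.54, 9.48, 9.61 and 9.53 in WT arrays. Prkaa2, which encodes α2, read 12.04, 11.95 and 12.04 in KO arrays, against 12.31, 12.03, 12.28 and 12.28 in WT arrays, where WT replicate 2 lay inside the KO range. The labels do not name the deleted exons, so these values do not check the deletion, and genotypes follow the labels.

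Most subunit transcripts lay slightly lower in KO muscle. The median difference over the 34 subunits was -0.16 on the log2 scale, against -0.0049 over all 19938 genes, and 32 of the 34 had a negative difference, where 53.4% of all genes did. All values below are log2 values or log2 differences (KO minus WT), and the error after a difference is limma's moderated standard error with n = 3 KO and n = 4 WT arrays. No member passed at 0.05 in limma after Benjamini-Hochberg adjustment across the whole table (0 of 36, against 0.0251% of all genes), and the smallest adjusted p was 0.083, for Ndufa4. At an unadjusted p under 0.05, 25 of 36 genes were lower and 0 higher, where 6.69% of all genes were lower and 3.93% higher. Every KO array lay below every WT array in 24 of 36 genes, where 5.33% of all genes did so, and above every WT array in 0 of 36, where 3.29% did. Bright probe sets leaned lower in general: among the 5397 other genes whose mean value lay in the subunits' range of 8.78 to 13.48, 16.3% were lower at an unadjusted p under 0.05 and the median difference was -0.04. Of these other genes 64.6% had a negative difference, and 13.4% had every KO array below every WT array. In whole muscle, fewer mitochondrion-rich cells and less RNA per cell cannot be told apart.

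**Figure D1:**
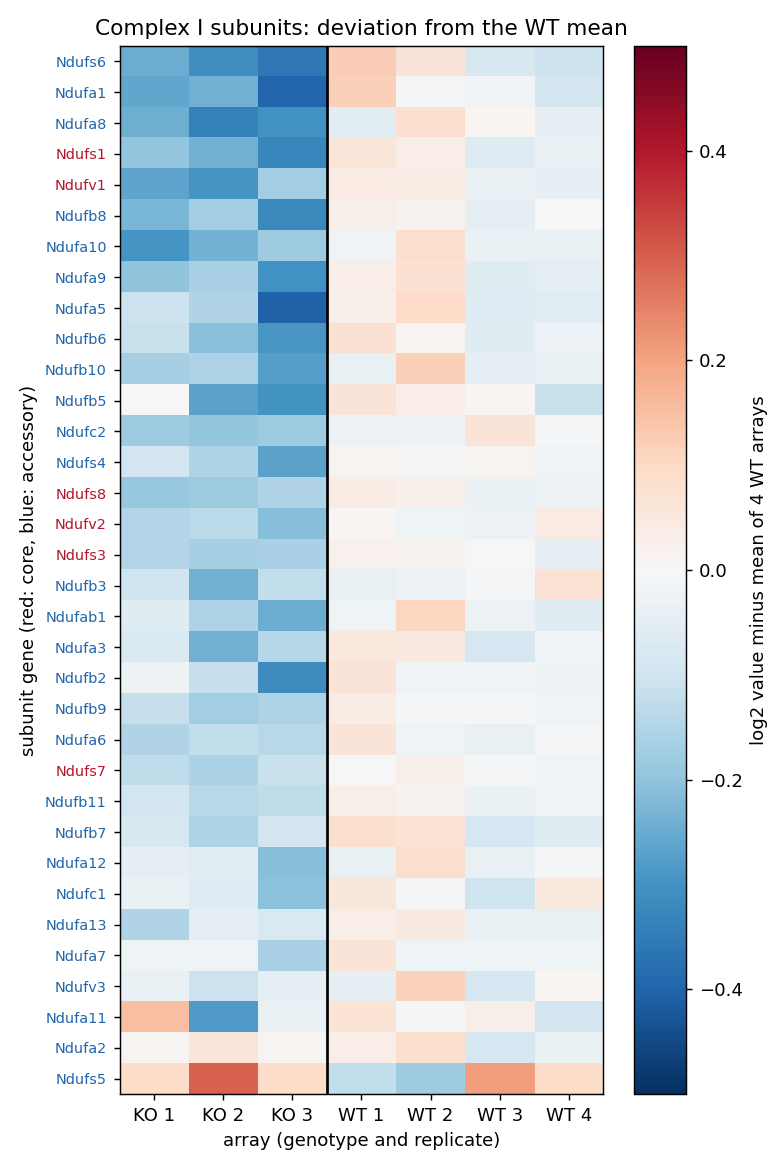
Each row is 1 of the 34 measured subunit genes, ordered from the most negative KO minus WT difference at the top, and each column is 1 array, with the 3 KO arrays left of the 4 WT arrays. Colour gives the log2 value minus that gene's mean over the 4 WT arrays, and most rows are blue in all 3 KO columns, while Ndufs5 and Ndufa2 at the bottom are not.

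All 6 core subunits analysed here lay lower with no overlap between the genotypes. That was so in 5.33% of all genes and in 13.4% of the other genes in the subunits' range of level. Ndufv1 binds NADH and the flavin that takes its electrons. It read 11.84, 11.81 and 11.93 in KO arrays, against 12.15, 12.15, 12.07 and 12.07 in WT arrays, a difference of -0.24 ± 0.04 (adjusted p = 0.12). Ndufv2, its iron-sulfur partner, read 12.55, 12.56 and 12.49 in KO arrays, against 12.71, 12.68, 12.67 and 12.74 in WT arrays, a difference of -0.16 ± 0.03 (adjusted p = 0.16). Ndufs1, the largest subunit and a carrier of several iron-sulfur clusters, read 11.17, 11.13 and 11.04 in KO arrays, against 11.43, 11.40, 11.30 and 11.34 in WT arrays, a difference of -0.25 ± 0.05 (adjusted p = 0.12). These 3 genes form the electron input end of the complex, and each was 1.12 to 1.19-fold lower.

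The other core subunits analysed lie in the part that hands electrons to ubiquinone. Ndufs3, which builds the base of that part, read 12.32, 12.30 and 12.30 in KO arrays, against 12.49, 12.48, 12.47 and 12.42 in WT arrays, a difference of -0.16 ± 0.03 (adjusted p = 0.12). Its second probe set differed by -0.16 ± 0.03 as well. Ndufs7, which carries the last iron-sulfur cluster before ubiquinone, read 13.41, 13.38 and 13.43 in KO arrays, against 13.54, 13.56, 13.53 and 13.53 in WT arrays, a difference of -0.13 ± 0.03 (adjusted p = 0.17). Ndufs8, an iron-sulfur subunit beside it, read 12.30, 12.31 and 12.33 in KO arrays, against 12.52, 12.51, 12.45 and 12.46 in WT arrays, a difference of -0.17 ± 0.03 (adjusted p = 0.12). In Ndufs8 and Ndufs7 the gap between the genotypes was wider than the range within either one, although the mean differences amounted to only 1.13-fold and 1.10-fold.

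Accessory subunits were more varied. Of 28 measured, 26 had a negative difference and 17 were lower at an unadjusted p under 0.05 (background 6.69% of all genes). In 17 every KO array lay below every WT array (5.33% of all genes, 13.4% of the other genes in the subunits' range of level). Differences ran from -0.31 to 0.16. The 8 with the smallest p are given first, starting with the membrane arm. Ndufa8, a small cysteine-rich protein on the intermembrane side, read 11.53, 11.44 and 11.47 in KO arrays, against 11.72, 11.86, 11.78 and 11.73 in WT arrays, a difference of -0.29 ± 0.04 (adjusted p = 0.096). Ndufb8, often used as an antibody marker of assembled complex I, read 11.40, 11.46 and 11.31 in KO arrays, against 11.66, 11.65, 11.59 and 11.63 in WT arrays, a difference of -0.24 ± 0.04 (adjusted p = 0.12). Both separated the genotypes completely.

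Ndufc2, a membrane subunit, read 13.06, 13.05 and 13.06 in KO arrays, against 13.21, 13.21, 13.31 and 13.23 in WT arrays, a difference of -0.18 ± 0.03 (adjusted p = 0.12). Ndufa10, which has the fold of a nucleoside kinase, read 12.05, 12.11 and 12.17 in KO arrays, against 12.33, 12.43, 12.31 and 12.31 in WT arrays, a difference of -0.24 ± 0.05 (adjusted p = 0.14). In Ndufc2 the KO arrays nearly coincided, while in Ndufa10 they were more spread out and WT replicate 2 stood above the other WT arrays. Ndufb9, a protein of the LYR family that binds the mitochondrial acyl carrier protein, read 12.82, 12.76 and 12.78 in KO arrays, against 12.97, 12.92, 12.93 and 12.92 in WT arrays, a difference of -0.15 ± 0.03 (adjusted p = 0.15). Ndufa1, a short X-linked subunit needed for assembly, read 9.33, 9.35 and 9.19 in KO arrays, against 9.71, 9.58, 9.57 and 9.50 in WT arrays, a difference of -0.30 ± 0.06 (adjusted p = 0.16). No KO array reached the lowest WT array in either gene.

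The other accessory subunits of the 8 belong to the matrix arm. Ndufs6, a zinc-binding subunit that joins late in assembly, read 10.15, 10.09 and 10.04 in KO arrays, against 10.52, 10.46, 10.32 and 10.29 in WT arrays, a difference of -0.31 ± 0.06 (adjusted p = 0.17). This was the most negative difference among the subunits, or 1.24-fold lower, and the WT arrays fell into a higher and a lower pair. Ndufa9, which holds a bound NADPH near the quinone site, read 11.18, 11.22 and 11.08 in KO arrays, against 11.42, 11.46, 11.32 and 11.33 in WT arrays, a difference of -0.22 ± 0.05 (adjusted p = 0.21).

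Further accessory subunits without overlap were Ndufs4, needed for a stable NADH-binding end, at -0.17 ± 0.04, Ndufb6 at -0.20 ± 0.05, Ndufb10 at -0.20 ± 0.05, Ndufa6 at -0.14 ± 0.03 and Ndufb11 at -0.12 ± 0.03. Ndufb3 at -0.15 ± 0.05 and Ndufa5 at -0.22 ± 0.08 did not overlap either, and without KO replicate 3 the difference of Ndufa5 was -0.13. Ndufa3, at -0.15 ± 0.05, and Ndufab1, the acyl carrier protein, at -0.15 ± 0.06, were past the unadjusted threshold but their genotypes met or overlapped. A second probe set of Ndufb11 differed by -0.14 and one of Ndufab1 by -0.16.

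The 11 members that were not past an unadjusted p of 0.05 were all accessory. Ndufs5, which faces the intermembrane space, had the larger of the 2 positive differences. It read 10.22, 10.42 and 10.22 in KO arrays, against 10.00, 9.95, 10.34 and 10.22 in WT arrays, a difference of 0.16 ± 0.11 (adjusted p = 0.67). The genotypes overlapped, the difference was 0.09 without KO replicate 2, and a further probe set of Ndufs5 is annotated to a pseudogene as well, so that signal from near-identical copies may be mixed. Ndufa2, a matrix subunit with a thioredoxin-like fold, read 10.98, 11.03 and 10.98 in KO arrays, against 11.00, 11.05, 10.88 and 10.93 in WT arrays, a difference of 0.03 ± 0.05 (adjusted p = 0.87), with the genotypes intermixed. Its difference was 0.0009 without WT replicate 3, 0.0176 without WT replicate 4, 0.0119 without KO replicate 2 and 0.0556 without WT replicate 2.

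Ndufa11, a membrane subunit, read 12.00, 11.56 and 11.81 in KO arrays, against 11.91, 11.84, 11.87 and 11.75 in WT arrays, a difference of -0.06 ± 0.10 (adjusted p = 0.89). KO replicate 2 was the lowest and KO replicate 1 the highest of all 7 arrays, and without KO replicate 2 the difference turned to 0.06. A second probe set of Ndufa11 differed by -0.0006 ± 0.07. The other members past no threshold were Ndufb5 at -0.19 ± 0.08, Ndufb2 at -0.15 ± 0.07, Ndufb7 at -0.11 ± 0.05, Ndufa12 at -0.11 ± 0.05, Ndufc1 at -0.10 ± 0.06, Ndufa13 at -0.09 ± 0.04, Ndufa7 at -0.07 ± 0.05 and Ndufv3 at -0.06 ± 0.05. Among these, Ndufa13 and Ndufa12 still had every KO array below every WT array. Several depended on 1 array: without KO replicate 3 Ndufb2 was -0.07, Ndufa12 -0.05, Ndufc1 -0.05 and Ndufa7 -0.02, without KO replicate 1 Ndufb5 was -0.28, and without WT replicate 2 Ndufv3 was -0.03.

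**Figure D2:**
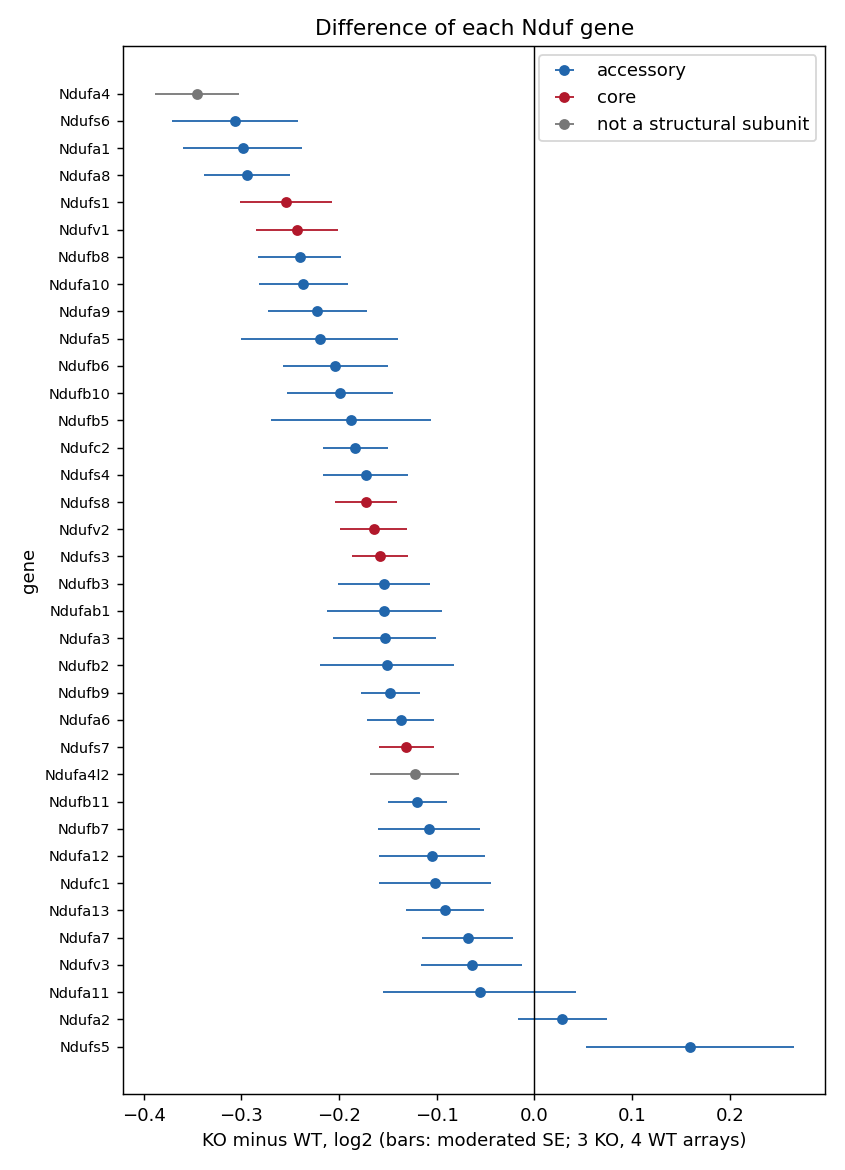
Points give the KO minus WT difference in log2 units for each of the 36 genes, with bars for the moderated standard error (3 KO and 4 WT arrays), coloured by class, with the most negative at the top. The 6 core subunits lie between -0.25 and -0.13, inside the accessory range of -0.31 to 0.16.

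The class comparison asked whether core and accessory subunits differed to the same degree. The median difference was -0.17 over the 6 core subunits and -0.15 over the 28 accessory subunits, which is 0.015 further from 0 in the core. Relative to the WT mean, the mean of the core subunits stood at -0.18, -0.20 and -0.19 in KO replicates 1 to 3, and that of the accessory subunits at -0.10, -0.15 and -0.20. The core mean was thus nearly the same on the 3 KO arrays (SD 0.0089), while the accessory mean was more spread (SD 0.048). On WT arrays the core mean ran from -0.03 to 0.03 and the accessory mean over the same range. The core minus accessory mean, taken the same way, was -0.075, -0.047 and 0.0089 in KO arrays, against values from -0.0096 to 0.0086 in WT arrays. KO replicates 1 and 2 lay below all WT arrays in this measure. KO replicate 3, at 0.0089, was level with the highest WT array, at 0.0086. No separation of the classes thus held on every KO array. Without KO replicate 1 the difference between the class medians was 0.019, with the accessory median then the more negative one. The share of members at an unadjusted p under 0.05 was 6 of 6 core and 17 of 28 accessory (60.7%), and with 6 core genes on shared arrays that gap was not tested. Of all genes 6.69% were lower at that threshold, and of the other genes in the subunits' range of level 16.3%. Core probe sets were also brighter, with a median WT level of 12.5 against 11.4 for accessory subunits. The class comparison was not adjusted for level.

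**Figure D3:**
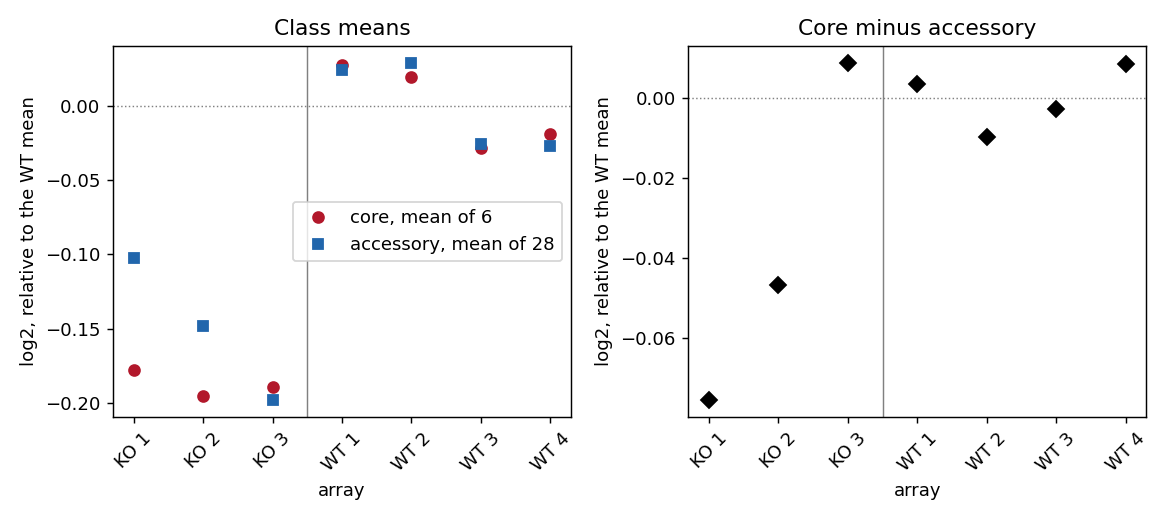
The left panel gives the mean log2 value of the 6 core subunits (circles) and of the 28 accessory subunits (squares) on each array relative to the WT mean, with KO arrays left of WT arrays. The right panel gives the core minus the accessory mean, which is -0.075, -0.047 and 0.0089 on the KO arrays and within 0.0096 of 0 on the WT arrays.

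By position in the complex the groups were close to each other. The quinone module (5 measured genes) had a median difference of -0.17, with 5 of 5 lower at an unadjusted p under 0.05. Beside this and the counts that follow, 6.69% of all genes were lower, and 16.3% of the other genes in the subunits' range of level. The NADH module (10 genes) had a median of -0.15, with 6 of 10, and its 7 accessory members alone had a median of -0.11, with 3 of 7. The proximal membrane arm (9 genes) had a median of -0.15, with 5 of 9, and the distal membrane arm, made of the Ndufb subunits (9 genes), also -0.15, with 6 of 9. Within the NADH module the core genes Ndufv1, Ndufs1 and Ndufv2 lay at -0.24, -0.25 and -0.16, while its 7 accessory genes ran from Ndufs6 at -0.31, more negative than every core subunit measured, through Ndufs4, Ndufa6 and Ndufa12 at -0.17, -0.14 and -0.11, to Ndufa7, Ndufv3 and Ndufa2 at -0.07, -0.06 and 0.03.

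Arrays differed in how far the subunits were shifted. Averaged over the 34 subunits, KO replicates 1 to 3 stood at -0.12, -0.16 and -0.20 relative to the WT mean, and WT arrays between -0.03 and 0.03. KO replicate 3 held the lowest value of the 7 arrays in 16 subunits, KO replicate 2 in 12 and KO replicate 1 in 4. At the other end, WT replicate 1 held the highest value in 18 subunits and WT replicate 2 in 11. KO replicate 1 lay below all WT arrays in 23 of 34 subunits, and KO replicates 2 and 3 in 30 each. The share of all genes in which a single KO array lay below all WT arrays was not counted, so these counts have no background beside them. KO replicate 3 also had the lowest weight when limma estimated array weights, 0.294 against 0.765 to 1.99 on the others. Leaving it out, 23 of 36 genes were lower at an unadjusted p under 0.05, where 6.51% of all genes were, and the median subunit difference was -0.14.

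Ndufa4 had the smallest p of all 36 genes. It read 11.08, 11.00 and 11.05 in KO arrays, against 11.47, 11.38, 11.39 and 11.32 in WT arrays, a difference of -0.35 ± 0.04 or 1.27-fold lower (adjusted p = 0.083). All KO arrays lay well below all WT arrays. Ndufa4l2 read 7.82, 7.90 and 7.96 in KO arrays, against 8.07, 7.99, 7.96 and 8.03 in WT arrays, a difference of -0.12 ± 0.05 (adjusted p = 0.42), and the genotypes met at 7.96. At an adjusted p under 0.10 in limma, 24 genes of the whole table were lower (0.12% of those tested), and Ndufa4 and Ndufa8 were the 2 members among them.

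The same direction was seen in the other respiratory complexes, and no test of a difference between the complexes was made. Median differences were -0.23 over the 4 genes of complex II, -0.14 over 9 of complex III, -0.16 over 13 of complex IV and -0.18 over 14 of ATP synthase. At an unadjusted p under 0.05 the lower genes numbered 4 of 4, 7 of 9, 11 of 13 and 13 of 14 in that order, where 6.69% of all genes and 16.3% of the other genes in the subunits' range of level were lower, with 0 higher and 0 past the adjusted threshold in each. Examples were Sdhc and Sdhd, the membrane anchors of succinate dehydrogenase, at -0.27 ± 0.03 and -0.23 ± 0.04, and Uqcrc1 and Uqcrfs1 of complex III at -0.22 ± 0.04 and -0.31 ± 0.06. In complex IV Cox5a and Cox8b differed by -0.31 ± 0.04 and -0.26 ± 0.05, and the ATP synthase subunits Atp5c1 and Atp5a1 by -0.24 ± 0.03 and -0.23 ± 0.04.

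Assembly factors of complex I, which are not part of the finished enzyme, had a median difference of -0.11 over 18 measured genes, with 7 lower and 0 higher at an unadjusted p under 0.05 (6.69% and 3.93% of all genes). Ecsit differed by -0.18 ± 0.04 and Timmdc1 by -0.21 ± 0.07. Their mean was uneven across KO arrays, at -0.05, -0.11 and -0.24 in KO replicates 1 to 3 relative to the WT mean, against -0.0068 to 0.01 in WT arrays. Regulators of mitochondrial genes had a median of -0.07 over 13 genes, with 1 of 13 past an unadjusted p of 0.05 and lower, a share near the 6.69% of all genes. The 2 regulators with the smallest p were nuclear receptors, and Esrra, which encodes ERRα, differed by -0.11 ± 0.04. Esrrb differed by -0.12 ± 0.06. The mean of the regulators stood at -0.01, 0.07 and -0.19 in the KO arrays and between -0.03 and 0.06 in the WT arrays, so the genotypes overlapped. No gene of either list passed adjustment.

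Markers of other cell types moved in the same arrays, and their counts at an unadjusted p under 0.05 stand against 6.69% of all genes lower and 3.93% higher. All 11 macrophage markers were higher at that threshold, and 2 of them passed adjustment in limma, Lyz2 at 0.94 ± 0.05 (adjusted p = 0.00884) and Tyrobp at 0.63 ± 0.05 (adjusted p = 0.0167), named here after their values were seen. The mean log2 level of the 11 markers lay between 9.15 and 9.31 in KO arrays, against 8.39 to 8.67 in WT arrays. Endothelial markers were lower, 7 of 9 at an unadjusted p under 0.05, with means from 9.30 to 9.43 in KO arrays, against 9.64 to 9.83 in WT arrays. Slow fibre markers were higher in 6 of 9, with means from 8.71 to 9.22 in KO arrays, against 8.48 to 8.64 in WT arrays, and fast fibre markers in 0 of 9, with 0 lower. Adipocyte markers were lower in 2 of 5, fibro-adipogenic markers higher in 2 of 6 and satellite cell markers lower in 1 of 4, while Schwann cell markers (3 measured) and the erythroid marker (1 measured) had none past that threshold. The part of these cell types in the lower subunit values was not tested.

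**Figure D4:**
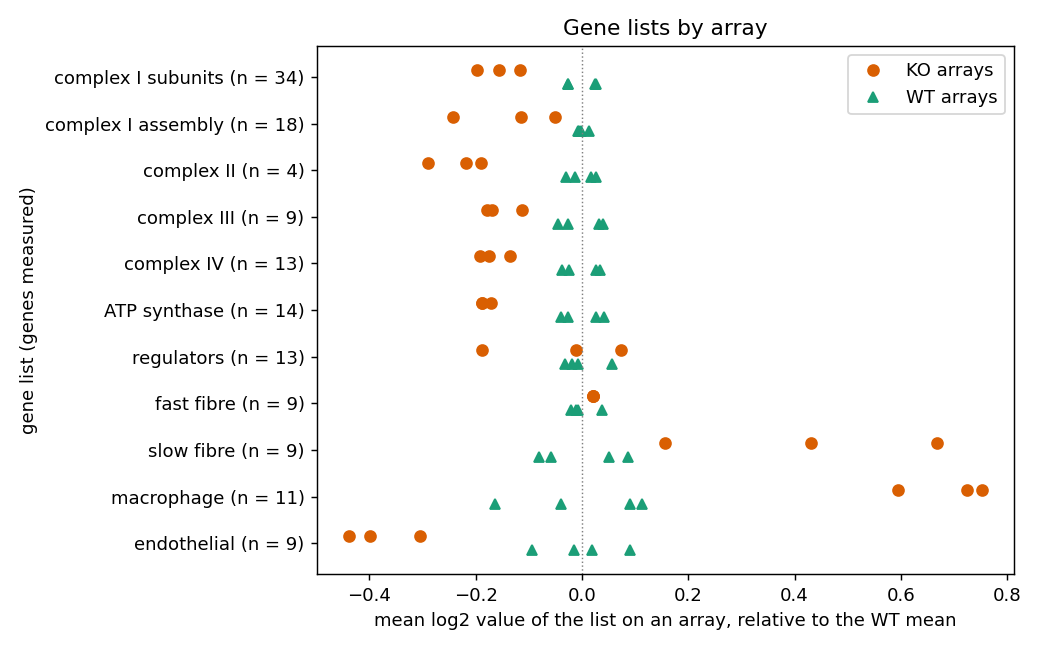
Each point is the mean log2 value of a gene list on 1 array relative to the WT mean, with KO arrays (circles) above WT arrays (triangles) in each row and the number of genes measured in brackets. Complex I subunits lie at -0.12, -0.16 and -0.20 on the KO arrays, beside the other complexes, while macrophage and slow fibre markers lie to the right and endothelial markers to the left.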

How the data were processed

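The submitters' value table holds 28856 probe sets on 7 arrays. Per the labels, RNA was extracted with TRIzol, and biotin labelling of 100 ng followed the Ambion WT Expression Kit. The deposited values were taken for log2 intensities because they run from 4.41 to 14.65 and exceed 11.09, the natural log of a 16-bit scanner's maximum, so the base is inferred. How probes were summarized, whether arrays were scaled and which build the design used are not stated in the labels, and scaling would hide a change common to every gene. Unused value columns numbered 0.

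Of the probe sets, 21789 had 1 symbol in GEO's platform annotation and were tested, 1621 had several and 5446 were unnamed here. By gene identifier, 21698 matched the RefSeq table of GRCm38.p6. Of the 36 members, 5 had more than 1 probe set, and the probe sets of each had the same sign. In Ndufa11 the second probe set differed by only -0.0006, so its sign carries little. Differences came from limma 3.58.1 (lmFit and eBayes, R 4.3.3) over all 7 arrays with no covariate, with Benjamini-Hochberg adjustment over the 21789 probe sets. The fit was tested on simulated data with shifts larger than any difference of the members. That test does not show how well differences as small as those of the subunits are found.

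The members, classes, gene lists and motifs were chosen with earlier results of these data known. Values were given for the 6 core subunits analysed, the 8 accessory subunits with the smallest p, those with positive differences (or the 3 nearest to it) and both Ndufa4 genes, and of the lists of assembly factors, other complexes and regulators the 2 genes with the smallest p were named. Ndufs4 and the remaining members are given by difference only. Alternatives were a replicate block, quantile normalization, centring on array medians, array weights, a trended robust prior, leaving out dim probe sets, other probe set rules, other thresholds and leaving out each array.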

Additional observations from a re-analysis of the deposited data

Results flagged for a closer look

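In 4 of 36 genes, 1 WT array stood far from the other 3. The nominal rate of the rule is about 1 in 20 groups, but the share of all genes it marks was not counted. The 36 genes also share the same WT arrays, so whether 4 is unusual was not tested. WT replicate 2 was high in Ndufa10, at 12.432 against 12.31 to 12.33 on the other WT arrays, and in Ndufb10, at 9.5954 against 9.43 to 9.44. WT replicate 1 was high in Ndufb2, at 9.0741 against 8.98 to 8.99, and in Ndufa7, at 10.4849 against 10.40 on each of the other WT arrays. Because those other values of Ndufa7 were identical, a gap of any size would have marked it. Groups of 3 KO arrays were not examined this way.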

How the results depend on the processing

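The count of members past the adjusted threshold was 0 under every alternative, and 2 and 14 at thresholds of 0.10 and 0.20. At 0.10 the share of all genes that were lower was 0.12%, and at 0.20 the share was not counted, so the 14 have no background beside them. With each array left out in turn, the number lower at an unadjusted p under 0.05 (25 with all arrays) ran from 21 to 26. The share of all genes ran from 4.14% to 8.5% in the same fits, and the median subunit difference from -0.18 to -0.14. The number without overlap (24) ran from 24 to 29, but it can only stay or rise when an array is left out. The share of all genes without overlap was not counted in these fits. The core minus accessory difference ran from -0.040 to 0.0194, the last without KO replicate 1. There it moved by more than the spread between arrays, and the cause was not tested. Ndufa11 ran from -0.1592 without KO replicate 1 to 0.0583 without KO replicate 2, which reversed it for a cause that was not tested. The other 284 of 285 values for the 19 genes given in full kept their sign and side of the threshold. Part of this was fixed in advance. Leaving out dim probe sets, the trended robust prior and adjusting over every probe set left each difference as it was. Averaging probe sets could change only genes with several. No gene passed the adjusted threshold in the main fit, so its side could change only if a gene came to pass. With the replicate number as a block, 23 members were lower at an unadjusted p under 0.05 (5.1% of all genes), 0 passed adjustment and the median difference was -0.17. WT replicate 4 was alone in its block, so the differences of that fit equalled those without WT replicate 4. Same-numbered KO and WT arrays deviated together in pairs 1 and 2 (r = 0.29 and 0.16 across genes) but not in pair 3 (r = -0.20), so the numbers were not taken as pairs. KO replicates 1 and 2 correlated best with their own number and KO replicate 3 did not. Signal close to background limits small differences of dim probe sets.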

Other observations

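Some probe sets gave exactly the same value on several arrays. This was so in 8 of the 36 genes, most often in Ndufa7, which read 10.40 on 5 of 7 arrays, and in Ndufs5, which read 10.22 on 3. Both genes had differences with an unadjusted p above 0.05.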
